A study of Arabidopsis thaliana with 24 samples.

Results

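Of the 22746 non-control probe sets on the array, 40 had an ethanol effect in wild-type seedlings that ran in opposite directions in the 2 light regimes. The effect is the mean log2 level under ethanol minus the mean under mock, with 3 arrays each. A probe set was taken where this effect was at least 0.5 in one light regime and -0.5 or lower in the other. In 29 of the 40 the level was higher under ethanol in constant light (LL) and lower in light-dark cycles (LD), and in 11 it was lower in LL and higher in LD. The 40 were chosen by these wild-type values, which are therefore given as a description without a test, and the tests are on ALC::TOC1 arrays, which had no part in the choice.

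The series holds 24 Affymetrix ATH1 arrays of total RNA from whole 13-day-old Arabidopsis thaliana seedlings, 3 arrays for each of 8 groups. The groups are ALC::TOC1 in LL with ethanol, ALC::TOC1 in LL with mock, ALC::TOC1 in LD with ethanol and ALC::TOC1 in LD with mock, and the same 4 for the wild type (Col-0). Seedlings had 12 days of 12 h light and 12 h dark, then spent 1 more day either in LL or in the same cycles (LD). All of them were then submerged for 3 h in Murashige-Skoog medium with MG132, given in the labels as 20 mM, with 2.5% ethanol or without it (mock), and were harvested at ZT1, 1 h after the time of lights-on. MG132, an inhibitor of the proteasome, was in the bath of every group. The labels name no line that carries the ethanol switch without TOC1, so an ethanol effect in ALC::TOC1 holds the effect of ethanol and that of any induced TOC1 together. They also do not say which promoter drives the switch, or whether replicates were grown apart, and each p-value therefore measures only the spread between these samples.

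In the alc system, taken from a fungus, the regulator AlcR responds to ethanol and switches on a promoter placed before the gene of interest. TOC1 is an evening-phased repressor of the plant circadian clock, and clock-controlled genes run differently in constant light and in light-dark cycles. Ethanol is itself metabolised by plants through acetaldehyde, so a seedling without the switch can also respond to it. Submersion limits gas exchange, and mock seedlings were submerged as well. No probe set was named TOC1 in the annotation used, and its level was not analysed here.

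Of the 29 probe sets higher in LL and lower in LD, 14 carried 1 gene name, 2 carried several and 13 none. Of the 11 with the opposite pattern, 6 carried 1 gene name and 5 none. Across the array 13513 of 22746 probe sets had 1 gene name, so unnamed members are given as counts, apart from 2 in each direction printed by their ID. No detection call was used, so it was not tested whether each member lay above background. The lowest group means were 4.25 log2 among the 29 and 4.08 among the 11, below the array medians, and the means over all 24 arrays lay between 5.02 and 7.69 log2 for the 29 and between 4.56 and 8.19 log2 for the 11.

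Correlations between arrays of the same group lay between 0.9885 and 0.9968 over all probe sets, and array medians between 5.137 and 5.414 log2. The GAPDH 3'/5' difference, which grows as RNA degrades, averaged 1.02 ± 0.11 log2 in wild-type LL ethanol arrays and 1.45 ± 0.15 in wild-type LL mock arrays (SD, n = 3 each). In LD it averaged 1.13 ± 0.39 in wild-type ethanol arrays, where 1 array stood at 1.57, and 1.09 ± 0.05 in wild-type mock arrays. In ALC::TOC1 it averaged 1.09 ± 0.11 under ethanol and 1.06 ± 0.20 under mock in LL, and 0.834 ± 0.059 under ethanol and 0.894 ± 0.086 under mock in LD. Of the marker lists, 9 of 49 nuclear photosynthesis entries had a named probe set, at group means of 10.999 to 11.8 log2, as in green seedlings. Only 2 of 10 root markers (EXPA7 and EXPA18, root hair expansins) and 1 of 12 markers of dividing cells (AUR1) had a named probe set. The 17 gene lists were matched through probe sets with 1 gene name, which 88 of their 381 genes had. None of the members with 1 gene name, 14 of the 29 and 6 of the 11, was on a list. The other members could not be matched, so it is not known whether they belong to any.

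**Figure D1:**
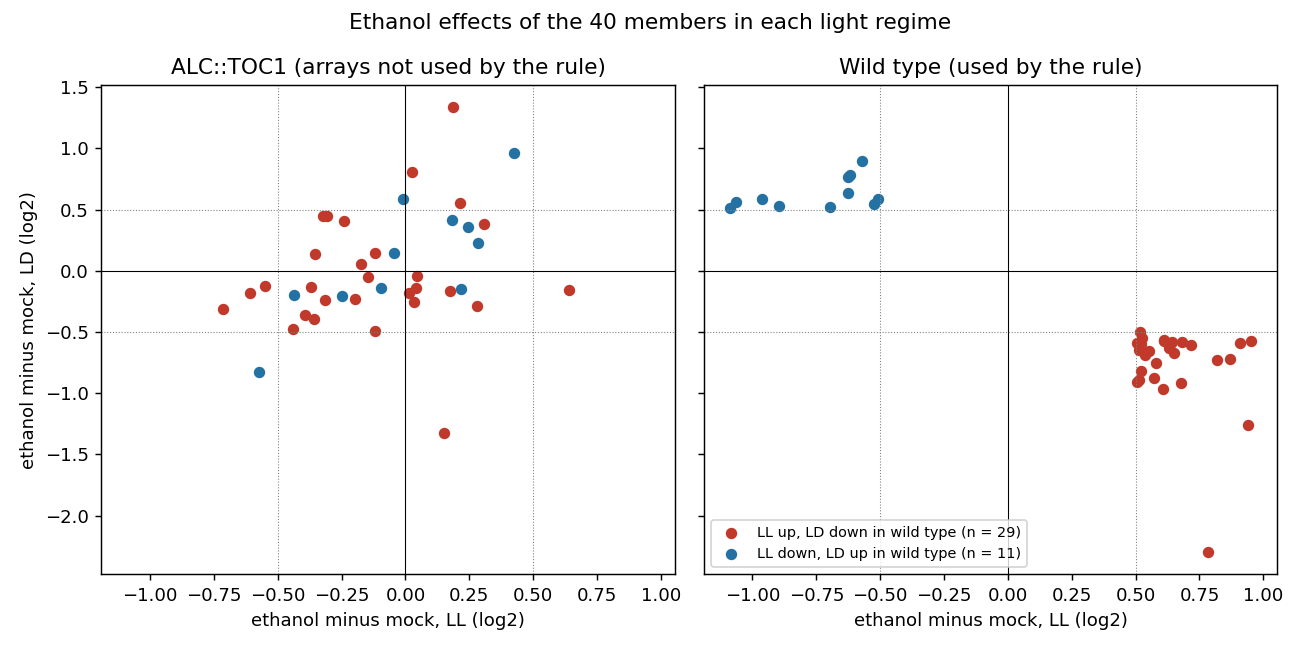
Ethanol effect (ethanol minus mock, log2) in LL on the horizontal axis and in LD on the vertical axis, 1 point per member, in ALC::TOC1 (left) and wild type (right); dotted lines mark 0.5 and -0.5. The wild-type points fill the 2 outer corners by the rule, while in ALC::TOC1 no member reached the rule's corners and 11 of the 29 lay below 0 on both axes. How many of all probe sets do so in ALC::TOC1 was not counted.

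Among the genes higher in LL and lower in LD was Prx37 (AT4G08770), a class III peroxidase of the cell wall. In wild-type LL, Prx37 had 8.97, 9.11 and 7.93 log2 in ethanol arrays, against 8.57, 8.07 and 6.92 log2 in mock arrays. In wild-type LD it had 6.53, 4.81 and 5.04 log2 in ethanol arrays, against 6.08, 6.53 and 5.95 log2 in mock arrays. The ethanol effects were 0.82 in LL and -0.73 in LD. Ethanol and mock arrays overlapped in both regimes: replicate 3 was low in both LL groups, and replicate 1 of the LD ethanol group was level with the mock arrays.

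AT3G61820 encodes a protein of the aspartyl protease family. It had 7.05, 7.25 and 6.92 log2 in wild-type LL ethanol arrays, against 6.53, 6.68 and 5.98 log2 in LL mock arrays, an effect of 0.68. Its LD ethanol arrays stood at 5.18, 5.001 and 5.03 log2, against 5.80, 6.18 and 5.98 log2 in LD mock arrays, an effect of -0.92. Here the ethanol and mock arrays were apart in both regimes, and the LD ethanol arrays were the lowest of all wild-type arrays.

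A pair of further genes of the same pattern encode a stress protein and a transporter. AT2G46140, a late embryogenesis abundant protein of the kind that accumulates in drying tissue, had 8.17, 8.21 and 7.48 log2 in wild-type LL ethanol arrays, against 7.60, 7.34 and 6.96 log2 in LL mock arrays. Its LD values were 6.42, 5.65 and 5.15 log2 under ethanol, against 6.49, 6.17 and 6.56 log2 under mock. The groups overlapped in each regime by 1 array, and the effects were 0.65 in LL and -0.67 in LD. SWEET4 (AT3G28007), a sugar transporter of the plasma membrane, had 5.61, 6.07 and 5.42 log2 in wild-type LL ethanol arrays, against 5.09, 5.14 and 4.97 log2 in LL mock arrays. Under LD it had 5.05, 4.73 and 5.12 log2 in ethanol arrays, against 5.54, 5.54 and 5.62 log2 in mock arrays. SWEET4 was apart in both regimes, with effects of 0.63 in LL and -0.60 in LD, and it was 1 of the 4 members of the 29 whose mock level was lower in LL than in LD (by 0.50 log2) while its ethanol level was higher.

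DRT100 (AT3G12610), a leucine-rich repeat protein named for DNA damage repair and toleration, had 7.88, 7.53 and 7.41 log2 in wild-type LL ethanol arrays, against 6.92, 7.05 and 6.13 log2 in LL mock arrays. In LD it had 4.91, 4.66 and 5.67 log2 in ethanol arrays, against 4.73, 6.43 and 5.85 log2 in mock arrays. The LL arrays were apart with an effect of 0.91, whereas the LD arrays overlapped, 1 mock array lying near the lowest ethanol array, with an effect of -0.59. AT4G29680, an alkaline-phosphatase-like protein, was apart in both regimes. Its levels were 6.72, 6.94 and 6.57 log2 under ethanol, against 6.18, 6.43 and 5.70 log2 under mock in wild-type LL, and 5.52, 4.94 and 5.37 log2 under ethanol, against 5.67, 5.93 and 5.99 log2 under mock in wild-type LD.

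A pair of members belongs to 1 protein family. AT3G55605 and AT2G39795 both encode mitochondrial glycoprotein family proteins and had effects of 0.61 and 0.52 in LL and of -0.58 and -0.61 in LD. AT3G55605 had 5.98, 5.87 and 5.65 log2 in LL ethanol arrays, against 5.26, 5.58 and 4.82 log2 in LL mock arrays, and 4.41, 3.98 and 4.93 log2 in LD ethanol arrays, against 4.97, 5.07 and 5.005 log2 in LD mock arrays. AT2G39795 had 6.60, 6.62 and 6.56 log2 in LL ethanol arrays, against 6.16, 6.19 and 5.88 log2 in LL mock arrays, and 5.57, 5.38 and 5.80 log2 in LD ethanol arrays, against 6.19, 6.22 and 6.16 log2 in LD mock arrays. For both genes every ethanol array lay above every mock array in LL and below every mock array in LD. These members are on nuclear chromosomes, and the family name refers to the proteins.

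Nucleic-acid binding and translation were represented by AT1G23750, an OB-fold protein, and AT2G37600, ribosomal protein L36e of the large subunit. AT1G23750 had 6.35, 6.60 and 6.52 log2 in wild-type LL ethanol arrays, against 5.68, 6.11 and 6.06 log2 in LL mock arrays, and 4.27, 4.39 and 4.74 log2 in LD ethanol arrays, against 4.93, 5.54 and 4.99 log2 in LD mock arrays. AT2G37600 had 7.18, 7.12 and 7.27 log2 in LL ethanol arrays, against 6.68, 6.74 and 6.61 log2 in LL mock arrays, with an effect of 0.51. In LD it had 4.67, 5.21 and 5.74 log2 in ethanol arrays, against 5.78, 6.30 and 5.47 log2 in mock arrays, with an effect of -0.645. The LL groups of both genes were apart, the LD groups of AT1G23750 were apart, and those of AT2G37600 overlapped by 1 array.

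AT3G03770, a leucine-rich repeat kinase of the kind that sits in the plasma membrane, had effects of 0.57 in LL and -0.88 in LD. Its arrays were at 5.88, 5.77 and 5.75 log2 under ethanol, against 5.29, 5.39 and 5.001 log2 under mock in wild-type LL, and at 4.16, 3.83 and 4.86 log2 under ethanol, against 4.89, 5.44 and 5.14 log2 under mock in wild-type LD. AT1G28400 and AT1G28395, for which no role is given here, are direct neighbours on chromosome 1 with 0 genes between them in the RefSeq annotation. AT1G28395 had 7.79, 7.86 and 7.87 log2 in LL ethanol arrays, against 7.29, 7.50 and 7.21 log2 in LL mock arrays, and 5.57, 5.64 and 6.14 log2 in LD ethanol arrays, against 6.57, 6.81 and 6.70 log2 in LD mock arrays, without overlap in either regime. AT1G28400 overlapped in both: its LL arrays had 7.96, 8.29 and 7.81 log2 under ethanol, against 7.70, 7.95 and 6.84 log2 under mock, and its LD arrays had 5.40, 5.04 and 6.39 log2 under ethanol, against 5.66, 6.88 and 5.94 log2 under mock.

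The member furthest from the threshold in LD carried no gene name. Probe set 254232_at had 7.38, 7.69 and 7.38 log2 in wild-type LL ethanol arrays, against 6.36, 6.72 and 7.03 log2 in LL mock arrays. In LD it had 5.72, 5.50 and 5.25 log2 in ethanol arrays, against 8.13, 7.67 and 7.56 log2 in mock arrays. Its effects were 0.78 in LL and -2.30 in LD, with groups apart in both regimes. The unnamed 259102_at had the highest LL effect of the 29, 0.95, with 7.60, 7.38 and 7.69 log2 in LL ethanol arrays, against 6.63, 6.55 and 6.64 log2 in LL mock arrays. Its LD effect was -0.57, with 7.23, 7.63 and 7.69 log2 in ethanol arrays, against 8.25, 8.04 and 7.97 log2 in mock arrays.

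Over the 29, the wild-type effects ran from 0.51 to 0.95 in LL, with a median of 0.61, and from -2.30 to -0.50 in LD, with a median of -0.645. Ethanol and mock arrays did not overlap in 21 of the 29 in LL, where 16.6% of all probe sets were apart with ethanol higher. They did not overlap in 17 of the 29 in LD, where 18.9% of all probe sets were apart with ethanol lower. In 14 of the 29 they were apart in both regimes, as in 1.26% of all probe sets. The rule used these contrasts, so nothing is read from these shares. Under mock, the wild-type mean was higher in LL than in LD in 25 of 29 (median difference 0.64 log2), and under ethanol in 29 of 29 (median 2.02 log2). The rule itself adds at least 1.0 log2 to this difference between mock and ethanol. Shares over all probe sets were not counted, and both counts are a description.

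In the opposite direction, the named member that cleared the threshold by most in both regimes was AT3G46690, a UDP-glycosyltransferase, one of the enzymes that attach sugars to small molecules. It had 5.72, 5.64 and 5.53 log2 in wild-type LL ethanol arrays, against 6.41, 5.77 and 6.59 log2 in LL mock arrays. In LD it had 6.84, 7.30 and 6.83 log2 in ethanol arrays, against 6.21, 6.37 and 6.10 log2 in mock arrays. The groups were apart in both regimes, and the effects were -0.63 in LL and 0.76 in LD. AT1G36060, an AP2/ERF transcription factor, had 5.25, 5.02 and 4.77 log2 in LL ethanol arrays, against 5.61, 5.52 and 5.78 log2 in LL mock arrays. Its LD arrays had 5.60, 6.52 and 5.63 log2 under ethanol, against 5.27, 5.14 and 5.42 log2 under mock. It too was apart in both regimes, with effects of -0.62 in LL and 0.64 in LD.

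A pair of signalling proteins shared this pattern. AT4G31000, a calmodulin-binding protein, had 6.39, 6.22 and 7.001 log2 in wild-type LL ethanol arrays, against 7.26, 7.20 and 8.03 log2 in LL mock arrays. In LD it had 8.13, 8.46 and 8.54 log2 in ethanol arrays, against 8.21, 7.18 and 7.98 log2 in mock arrays. The LL arrays were apart and the LD arrays overlapped, and the effects were -0.96 in LL and 0.59 in LD. AT1G07560, a leucine-rich repeat kinase, was among the dimmest members. It had 4.55, 4.15 and 4.33 log2 in LL ethanol arrays, against 5.09, 4.86 and 4.66 log2 in LL mock arrays, and 5.15, 5.31 and 4.78 log2 in LD ethanol arrays, against 4.62, 4.66 and 4.33 log2 in LD mock arrays, without overlap in either regime.

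AT1G53030 encodes a COX17 copper chaperone, which carries copper for assembly of cytochrome c oxidase in mitochondria. It had 5.41, 5.14 and 5.59 log2 in wild-type LL ethanol arrays, against 6.03, 5.88 and 6.32 log2 in LL mock arrays, and 7.34, 7.68 and 7.48 log2 in LD ethanol arrays, against 7.06, 6.89 and 6.99 log2 in LD mock arrays. Its ethanol and mock arrays were apart in both regimes, and under mock the gene stood 0.91 log2 lower in LL than in LD. AT2G25200, for which no role is given here, had the lowest LL effect, -1.09, with 6.82, 6.19 and 7.24 log2 in LL ethanol arrays, against 7.68, 7.42 and 8.42 log2 in LL mock arrays. Its LD effect was 0.51, with 7.04, 6.87 and 6.96 log2 in ethanol arrays, against 6.63, 6.50 and 6.22 log2 in mock arrays. Under mock AT2G25200 was 1.39 log2 higher in LL than in LD.

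The 2 unnamed members given for this direction were 253392_at and 245702_at. Probe set 253392_at had 6.38, 5.95 and 6.15 log2 in wild-type LL ethanol arrays, against 7.73, 6.67 and 7.27 log2 in LL mock arrays, and 8.50, 8.69 and 8.01 log2 in LD ethanol arrays, against 7.88, 7.82 and 7.79 log2 in LD mock arrays. Probe set 245702_at had 5.16, 5.06 and 4.97 log2 in LL ethanol arrays, against 5.67, 5.76 and 5.29 log2 in LL mock arrays, and 5.99, 5.94 and 6.03 log2 in LD ethanol arrays, against 5.25, 5.96 and 5.004 log2 in LD mock arrays. The first was apart in both regimes and the second overlapped in LD.

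Over the 11, wild-type effects ran from -1.09 to -0.51 in LL, with a median of -0.63, and from 0.51 to 0.90 in LD, with a median of 0.58. Ethanol and mock arrays were apart in 9 of the 11 in LL (13.5% of all probe sets were apart with ethanol lower) and in 9 of the 11 in LD (16.0% with ethanol higher). In 7 of the 11 they were apart in both, as in 0.576% of all probe sets, and again the rule used these contrasts. The mock levels of the 11 had no common order between regimes, with 7 of 11 higher in LL and a median difference of 0.17 log2. Under ethanol 1 of the 11 was higher in LL, with a median difference of -1.27 log2, and in 6 of the 11 the order of the regimes was turned over between mock and ethanol. The rule itself lowers LL against LD by at least 1.0 log2 between mock and ethanol, so these counts are a description.

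The threshold of 0.5 runs through a continuum. Just inside it among the 29 were AT1G73940, at 0.52 in LL and -0.50 in LD, and a probe set with several gene names at 0.51 in LL. AT1G73940 had 7.38, 7.30 and 7.64 log2 in LL ethanol arrays, against 6.95, 7.15 and 6.67 log2 in LL mock arrays, and 5.81, 5.39 and 6.16 log2 in LD ethanol arrays, against 6.27, 6.42 and 6.18 log2 in LD mock arrays. Just outside were an unnamed probe set at 0.494 in LL and -0.497 in LD, and AT4G34290 at 0.49 in LL and -0.70 in LD. In the other direction 245702_at and AT2G25200 were the last inside, and AT4G39675, at -0.495 in LL and 0.80 in LD, and AT2G44010, at -0.61 in LL and 0.49 in LD, were the first outside.

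**Figure D2:**
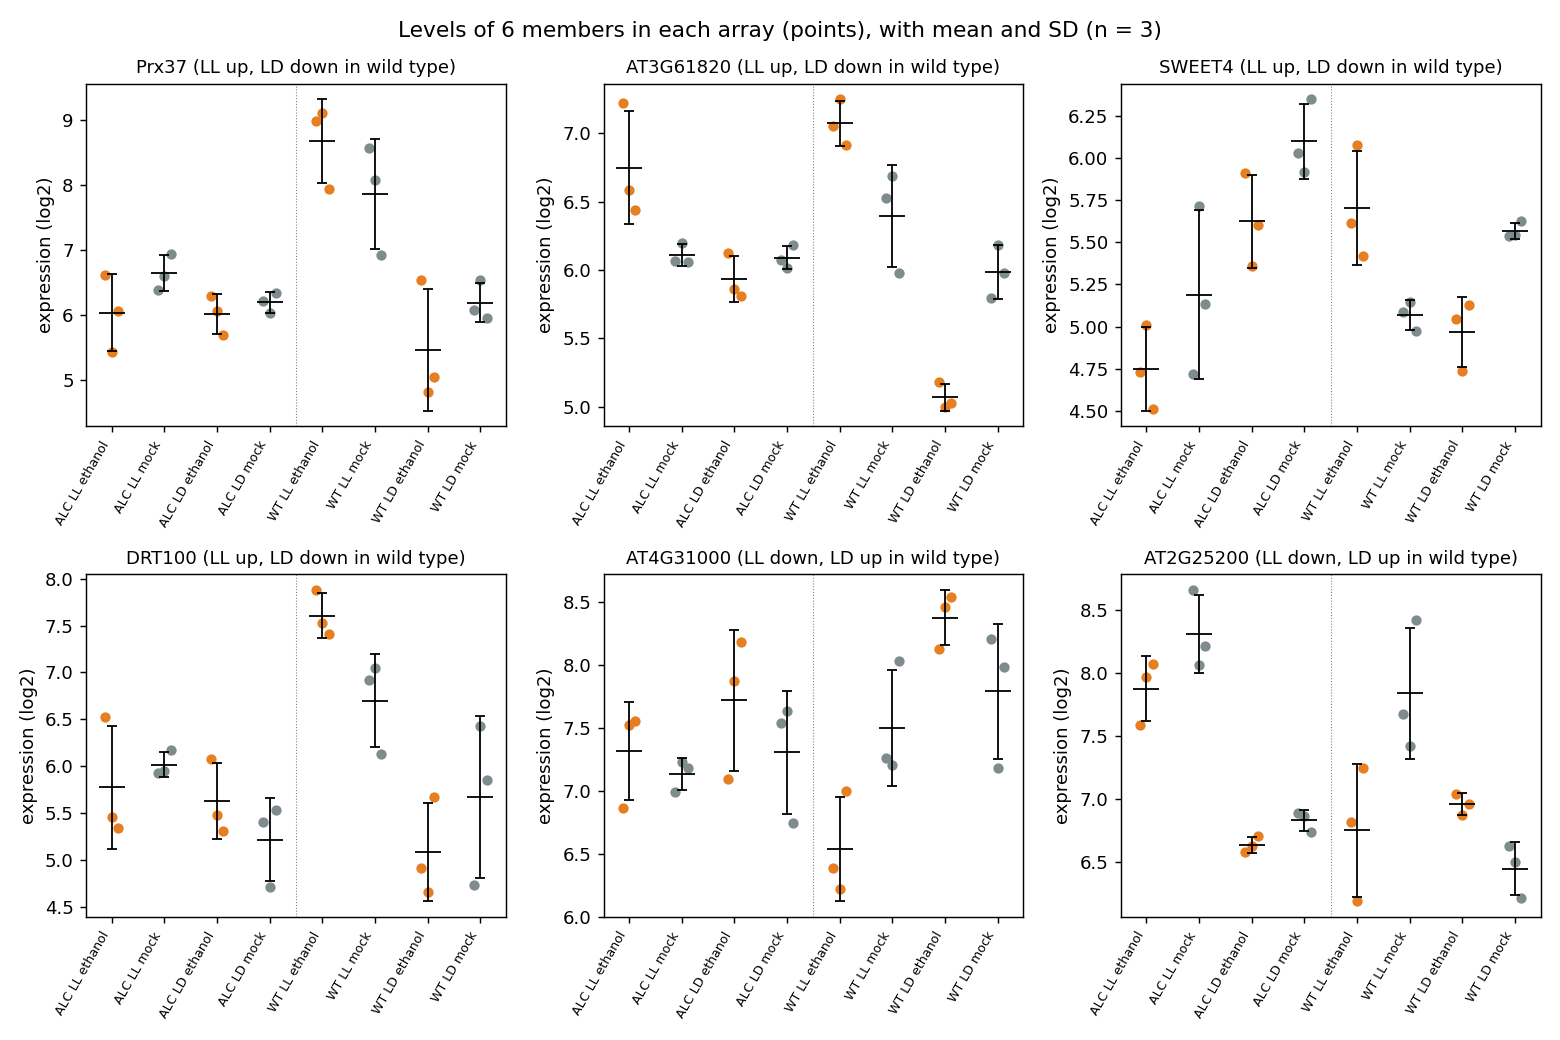
Level (log2) of 6 named members in each of the 24 arrays (points), with the group mean and SD (n = 3), ALC::TOC1 groups left of the wild-type groups and ethanol left of mock. In each gene the wild-type ethanol mean is above the mock mean in one light regime and below it in the other, by the rule; for Prx37 the wild-type LL arrays reach 9.11 log2, while no ALC::TOC1 array exceeds 6.93 log2.

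Membership depended on single wild-type arrays. When each of the 12 wild-type arrays was left out in turn and the rule applied again, 1 of the 29 (254232_at) and 0 of the 11 met it every time, and the other members met it in 7 to 11 of the 12. The number meeting the rule in the first direction was 54 without replicate 2 and 11 without replicate 3 of the LL mock arrays, 19 without replicate 2 and 49 without replicate 3 of the LD ethanol arrays, and 44 without replicate 1 of the LD mock arrays. In the second direction it was 30 without replicate 3 of the LL ethanol arrays, 18, 24 and 17 without replicates 1, 2 and 3 of the LL mock arrays, 26 without replicate 3 of the LD ethanol arrays, and 20 and 22 without replicates 1 and 2 of the LD mock arrays. With the GAPDH 3'/5' difference of each array as a covariate, 49 and 28 probe sets met the rule, among them 22 of the 29 and 7 of the 11. The root marker mean, over EXPA7 and EXPA18, was 4.72 log2 in LL ethanol arrays and 4.13 in LL mock arrays of the wild type, and 3.68 in LD ethanol arrays and 3.88 in LD mock arrays. In LD the difference came mostly from EXPA18, at 3.36 log2 under ethanol against 3.71 under mock, while EXPA7 was nearly level at 4.005 against 4.05. These levels lie below the array medians, and it was not tested whether they lay above background. The mean of the 2 genes thus differed in the same directions as the 29. So did the median wild-type effect of the ribosome biogenesis list (2 of 8 entries matched), 0.32 in LL and -0.31 in LD. The median of the nuclear photosynthesis list was below 0 in both regimes, -0.21 in LL and -0.64 in LD. Medians of the calcium and rapid stress, sugar starvation and low oxygen lists were below 0 in LL and above 0 in LD. The part of any list in the result was not tested. AUR1 stood at 6.41 log2 in wild-type LL ethanol arrays and 6.31 in LL mock arrays, and at 4.72 in LD ethanol arrays and 4.75 in LD mock arrays. In whole seedlings, fewer cells of a type and less RNA per cell cannot be told apart.

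**Figure D3:**
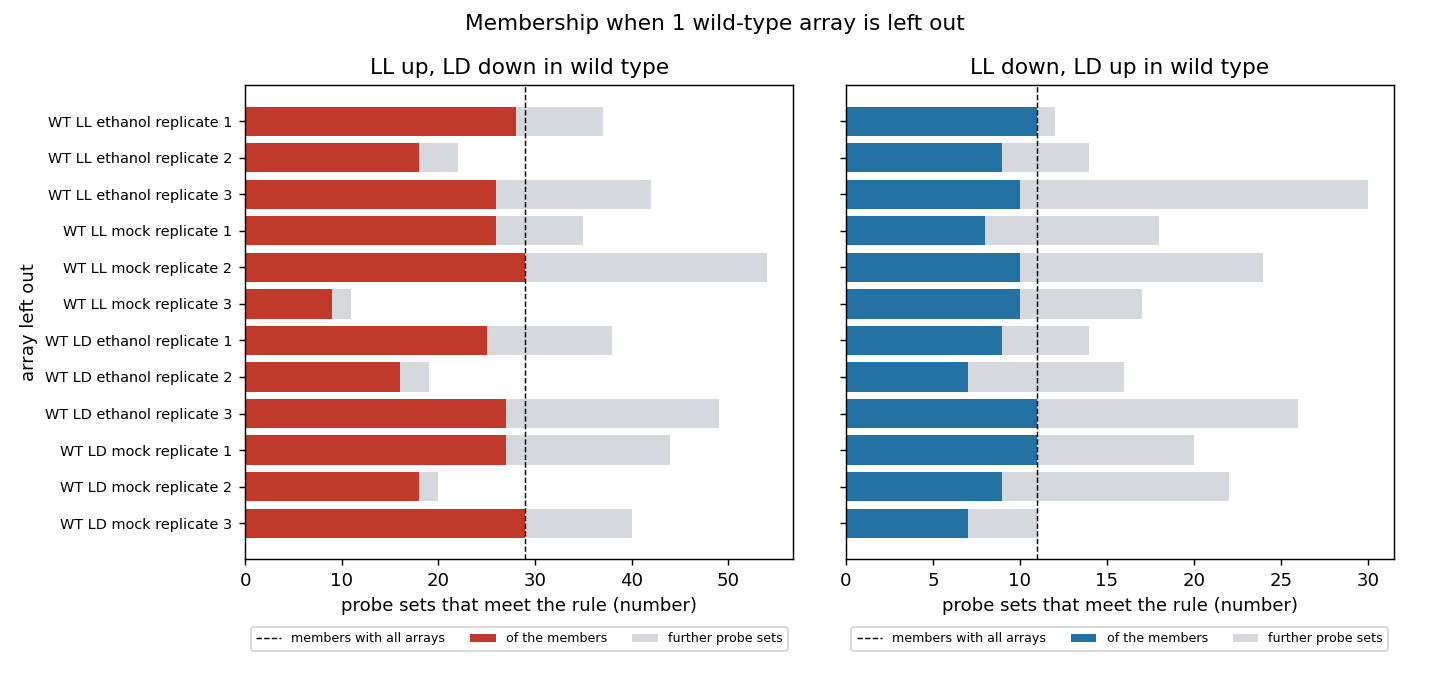
Number of probe sets that met the rule when 1 wild-type array, named on the vertical axis, was left out, for the pattern higher in LL and lower in LD (left) and its opposite (right); coloured bars are the members given here, grey bars further probe sets, and the dashed line marks 29 and 11. Without replicate 3 of the LL mock arrays 11 probe sets met the first pattern, 9 of them members, and without replicate 2 of the LL mock arrays 54 met it.

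ALC::TOC1 seedlings had the same bath in the same light regimes. The signs of their 2 ethanol effects ran as in wild type in 8 of the 29 and 2 of the 11, and none of the 40 met the rule. In wild type 40 of all 22746 probe sets met it. How many of all probe sets met it, or had these signs, in ALC::TOC1 was not counted, so nothing particular to the members is read from this. The question put to these arrays was whether the ethanol effect in LL minus that in LD differed from 0, as an interaction in a limma fit of all 24 arrays adjusted over all 22746 probe sets. Among the 29, 1 member passed in the wild-type direction, the unnamed 254232_at, where 0.396% of all probe sets passed with the LL effect higher and 0.607% with it lower. With so low a share over the whole array, few calls among 40 members say nothing particular about them. Of the 29 the interaction was above 0 in 12 and below 0 in 17, with a median of -0.08 against -0.0028 over all probe sets. Among the 11, 0 passed by limma and 1 had an unadjusted p under 0.05. Their interaction was below 0, the wild-type direction, in 7 and above 0 in 4, with a median of -0.12.

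The smallest difference between regimes that the rule allows in wild type is 1.0 log2. In ALC::TOC1 the 95% interval of the interaction ended short of it in 24 of the 29 and in 8 of the 11, and reached it in the others. The wild-type values chose the members and so lean away from 0, and the share of all probe sets ending short was not counted. No change from wild type is therefore read from these counts. The 2 ethanol effects of ALC::TOC1 ran the other way round by sign in 6 of the 29 and 1 of the 11. Both were below 0 in 11 of the 29 and 4 of the 11, and both above 0 in 4 of the 29 and 4 of the 11. Shares of these sign patterns over all probe sets were not counted, so they are a description.

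**Figure D4:**
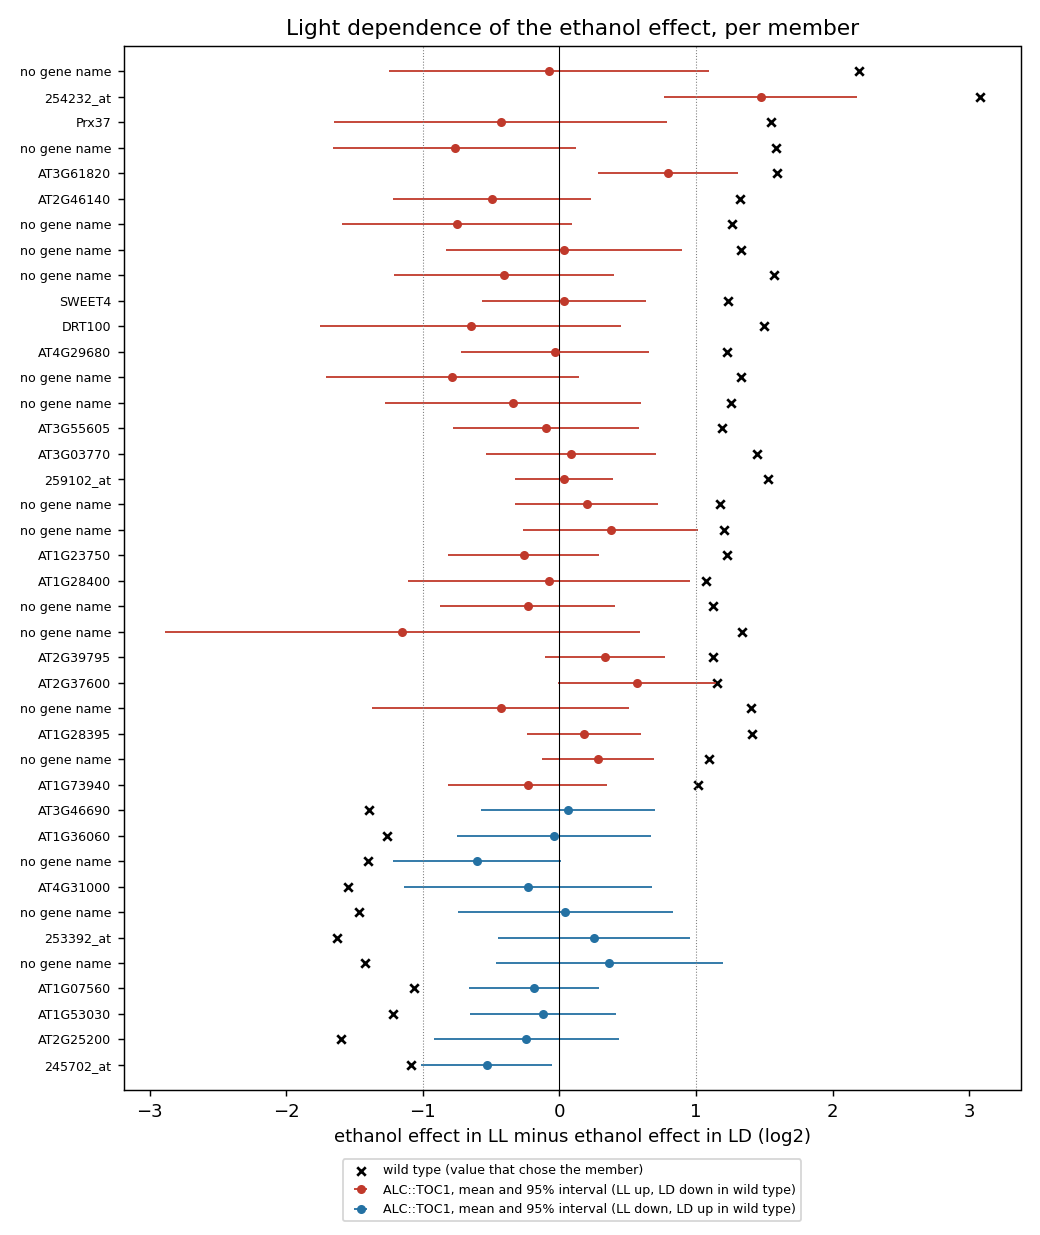
Ethanol effect in LL minus that in LD (log2) for each of the 40 members, with the ALC::TOC1 value and its 95% interval from limma (points and bars) and the wild-type value that chose the member (crosses); dotted lines mark 1 and -1. Most ALC::TOC1 intervals cover 0 and stop short of the wild-type cross. The crosses lean away from 0 because they chose the members, so this is not read as a difference between genotypes. The member 254232_at, with an interval of 0.77 to 2.18, is the one that passed, though not with the replicate number as a block (adjusted p = 0.0521). Its call was also lost without most of the single ALC::TOC1 arrays.

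For 254232_at, ALC::TOC1 arrays in LL had 6.24, 5.58 and 5.64 log2 under ethanol, against 5.12, 5.77 and 6.11 log2 under mock. In LD they had 6.23, 6.17 and 5.89 log2 under ethanol, against 7.75, 7.01 and 7.49 log2 under mock. The level fell under ethanol in LD by 1.32 ± 0.24 log2 (SE; limma adjusted p = 0.000439), with all 3 ethanol arrays below all 3 mock arrays, and in LL the difference was 0.15 ± 0.24 with overlapping arrays (adjusted p = 0.77). The interaction was 1.47 ± 0.34 (limma adjusted p = 0.037), compared with 3.08 in wild type. Its call was lost with the replicate number as a block (adjusted p = 0.0521), and in the fit without any 1 of 9 of the 12 ALC::TOC1 arrays. Without replicate 1 of the LL mock arrays the value was 1.199 (adjusted p = 0.0971), without replicate 1 of the LL ethanol arrays 1.26 (adjusted p = 0.0939), and without replicate 1 of the LD mock arrays 1.31 (adjusted p = 0.101). Without the other 6 the adjusted p lay between 0.0559 and 0.0849.

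AT3G61820 was the named member nearest to the wild-type pattern. ALC::TOC1 arrays in LL had 7.22, 6.59 and 6.44 log2 under ethanol, against 6.07, 6.20 and 6.06 log2 under mock. In LD they had 6.13, 5.86 and 5.81 log2 under ethanol, against 6.08, 6.01 and 6.18 log2 under mock. The protease-family transcript rose under ethanol in LL by 0.64 ± 0.18 log2 (limma adjusted p = 0.015) with all ethanol arrays above all mock arrays, while in LD the groups overlapped, with an effect of -0.16 (adjusted p = 0.62). Its interaction of 0.80 ± 0.25 did not pass (limma adjusted p = 0.15, 95% interval 0.28 to 1.31), beside 1.59 in wild type. Without replicate 1 of the LL ethanol arrays the LL effect was 0.40 (adjusted p = 0.104), and without replicate 3 of the LL mock arrays 0.62 (adjusted p = 0.0531), so the call rested on both.

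AT3G61820 was the 1 member of the 29 that passed in ALC::TOC1 LL, where 15.4% of all probe sets passed, 6.45% as higher and 8.92% as lower. Of the 29 effects in LL, 12 were above 0 and 17 below, with a median of -0.15 log2 against -0.0131 over all probe sets. None of the 11 passed in LL by limma, and 2 of them had an unadjusted p under 0.05. Ethanol and mock arrays were apart with ethanol higher in 1 of the 29 (14.2% of all probe sets) and with ethanol lower in 3 (17.2%), and with ethanol higher in 1 of the 11. The count of passing members among the 29 was 0 without replicate 3 of the LL mock arrays, and 2 without replicate 1 of the LL mock arrays, replicate 1 or 2 of the LL ethanol arrays or replicate 2 or 3 of the LD ethanol arrays. It was also 2 when a wild-type array that enters only through the shared spread was left out, namely replicate 2 or 3 of LL ethanol, replicate 1 or 3 of LD ethanol or replicate 1 of LD mock. Among the 11 it was 1 without replicate 2 or 3 of the wild-type LD mock arrays.

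Other named members of the 29 did not pass in either regime. Prx37 had 6.61, 5.43 and 6.06 log2 in ALC::TOC1 LL ethanol arrays, against 6.39, 6.60 and 6.93 log2 in LL mock arrays, and 6.29, 6.06 and 5.68 log2 in LD ethanol arrays, against 6.21, 6.02 and 6.33 log2 in LD mock arrays. Both pairs of groups overlapped, and the interaction was -0.43 ± 0.59 (limma adjusted p = 0.87, 95% interval -1.65 to 0.79), where wild type had 1.55. SWEET4 had 4.73, 5.01 and 4.51 log2 in LL ethanol arrays, against 4.72, 5.71 and 5.14 log2 in LL mock arrays, and 5.91, 5.36 and 5.60 log2 in LD ethanol arrays, against 6.03, 5.92 and 6.35 log2 in LD mock arrays. The sugar transporter had nearly the same value in both regimes, -0.44 ± 0.20 in LL (limma adjusted p = 0.17) and -0.47 ± 0.20 in LD (adjusted p = 0.12). Its interaction was 0.03 with a 95% interval of -0.57 to 0.64, beside 1.23 in wild type, where the values chose the member. Without replicate 1 of the LL mock arrays SWEET4 passed in LL at -0.67 (limma adjusted p = 0.0329).

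The late embryogenesis abundant gene AT2G46140 had 6.79, 6.30 and 6.27 log2 in ALC::TOC1 LL ethanol arrays, against 6.91, 6.84 and 6.67 log2 in LL mock arrays, and 6.69, 6.73 and 6.24 log2 in LD ethanol arrays, against 6.46, 6.40 and 6.39 log2 in LD mock arrays. DRT100 had 6.52, 5.45 and 5.34 log2 in LL ethanol arrays, against 5.93, 5.94 and 6.17 log2 in LL mock arrays, and 6.08, 5.48 and 5.31 log2 in LD ethanol arrays, against 5.40, 4.70 and 5.53 log2 in LD mock arrays. For both genes the sign of the interaction was opposite to wild type, -0.49 ± 0.35 for AT2G46140 and -0.65 ± 0.53 for DRT100, and both 95% intervals covered 0. The remaining interactions of named members of the 29 lay between -0.26, for AT1G23750, and 0.57, for the ribosomal protein gene AT2G37600 (95% interval -0.01 to 1.15), whose limma adjusted p was 0.47. The alkaline-phosphatase-like AT4G29680 passed as lower in LL, at -0.74, when replicate 1 of the LL ethanol arrays was left out (limma adjusted p = 0.0184), against -0.39 with all arrays.

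In LD, 2 of the 29 passed, both lower under ethanol as in wild type, where 18.7% of all probe sets passed, 8.31% as higher and 10.4% as lower. Ethanol and mock arrays were apart with ethanol lower in 8 of the 29 (19.8% of all probe sets) and with ethanol higher in 1 (16.6%). One was 254232_at. The other was 259102_at, with 7.39, 7.62 and 7.22 log2 in ALC::TOC1 LD ethanol arrays, against 7.75, 7.82 and 7.84 log2 in LD mock arrays, an effect of -0.39 ± 0.12 (limma adjusted p = 0.0277). In LL 259102_at was lower too, against the direction in wild type: its ethanol arrays had 6.36, 6.60 and 6.41 log2, against 6.75, 6.93 and 6.75 log2 in mock arrays, and the effect was -0.36 ± 0.12 (adjusted p = 0.0521). All ethanol arrays lay below all mock arrays in both regimes, and the interaction of 0.03 had a 95% interval of -0.32 to 0.39, beside 1.52 in wild type. The LD call of 259102_at was lost with each array centred on its median (adjusted p = 0.0972) and without any 1 of 5 of the 6 ALC::TOC1 LD arrays, at adjusted p of 0.0503 to 0.133, all but replicate 2 of the ethanol arrays. Without each of these 5 the count among the 29 was 1, and without replicate 2 of the wild-type LD mock arrays it was 4.

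Of the 11, 2 passed in ALC::TOC1 LD, 1 in each direction, a share close to the 18.7% of all probe sets (8.31% higher and 10.4% lower). Probe set 245702_at rose under ethanol by 0.96 ± 0.16 log2 (limma adjusted p = 0.000224), with 6.54, 6.56 and 6.65 log2 in ethanol arrays, against 5.76, 5.57 and 5.54 log2 in mock arrays. In LL it had 6.29, 6.46 and 6.47 log2 in ethanol arrays, against 6.14, 5.90 and 5.90 log2 in mock arrays, an effect of 0.43 ± 0.16 (adjusted p = 0.0852). It was the member of the 11 whose 95% interval of the interaction did not cover 0, at -1.01 to -0.05 around -0.53, though the limma adjusted p was 0.38. Probe set 253392_at fell in LD by 0.83 ± 0.24 log2 (limma adjusted p = 0.0174), opposite to wild type, with 6.80, 6.72 and 7.47 log2 in ethanol arrays, against 7.88, 7.91 and 7.67 log2 in mock arrays. Its LL arrays had 5.69, 6.02 and 6.33 log2 under ethanol, against 6.82, 6.71 and 6.23 log2 under mock, an effect of -0.57 ± 0.24 that did not pass (adjusted p = 0.12). The LD call of 253392_at was lost without replicate 1 (adjusted p = 0.0785) or 2 (adjusted p = 0.0992) of the ethanol arrays and without replicate 1 (adjusted p = 0.0553) or 2 (adjusted p = 0.0634) of the mock arrays. The count among the 11 was 1 without replicate 2 of the mock arrays or replicate 1 or 2 of the ethanol arrays.

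None of the 6 named members of the 11 passed in either regime or in the interaction. AT4G31000, the calmodulin-binding protein, had 6.86, 7.53 and 7.56 log2 in ALC::TOC1 LL ethanol arrays, against 6.99, 7.23 and 7.18 log2 in LL mock arrays, and 7.10, 7.88 and 8.18 log2 in LD ethanol arrays, against 7.54, 7.63 and 6.75 log2 in LD mock arrays. Its interaction was -0.23 ± 0.44 (limma adjusted p = 0.92), with a 95% interval of -1.14 to 0.68, beside -1.55 in wild type, where the values chose the member. AT3G46690, the UDP-glycosyltransferase, had 6.73, 6.86 and 7.37 log2 in LL ethanol arrays, against 6.76, 6.80 and 6.54 log2 in LL mock arrays, and 6.24, 6.28 and 7.06 log2 in LD ethanol arrays, against 6.15, 6.55 and 6.21 log2 in LD mock arrays. Its values were above 0 in both regimes, 0.29 ± 0.22 in LL and 0.22 ± 0.22 in LD. AT2G25200 had 7.59, 7.97 and 8.07 log2 in LL ethanol arrays, against 8.66, 8.07 and 8.21 log2 in LL mock arrays, and 6.58, 6.63 and 6.71 log2 in LD ethanol arrays, against 6.89, 6.87 and 6.74 log2 in LD mock arrays, and its interaction was -0.24 ± 0.33 (95% interval -0.92 to 0.44), beside -1.60 in wild type. The transcription factor gene AT1G36060, the kinase gene AT1G07560 and the copper chaperone gene AT1G53030 had interactions of -0.04 ± 0.34, -0.19 ± 0.23 and -0.12 ± 0.26.

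The light regime itself separated several members in ALC::TOC1. Under mock, 7 of the 29 were higher in LL than in LD and 3 lower, with 24.1% of all probe sets passing (12.8% higher and 11.4% lower), and the median difference was 0.40 log2 against 0.0457 over all probe sets. Under ethanol 8 were higher and 2 lower, with 21.9% of all probe sets passing (11.2% higher and 10.7% lower) and a median of 0.26 log2 against 0.0379. Without replicate 1 of the LL ethanol arrays, 6 of the 29 passed under ethanol. SWEET4 was lower in LL in both treatments, by 0.88 ± 0.20 log2 under ethanol (limma adjusted p = 0.00358) and by 0.91 ± 0.20 under mock (adjusted p = 0.00256). AT1G28395 was higher in LL in both, by 0.84 ± 0.14 under ethanol (limma adjusted p = 0.000204) and 0.66 ± 0.14 under mock (adjusted p = 0.00187), while its neighbour AT1G28400 passed in neither, at -0.11 ± 0.35 and -0.03 ± 0.35. AT2G37600 passed under ethanol, at 1.02 ± 0.20 (limma adjusted p = 0.000696), and AT3G61820 likewise, at 0.82 ± 0.18 (adjusted p = 0.00183). AT1G23750 passed under mock, at 0.61 ± 0.19 (limma adjusted p = 0.022), and lost that call without replicate 1 (0.56, adjusted p = 0.0713) or replicate 3 (0.50, adjusted p = 0.109) of the LL mock arrays or replicate 2 of the LD mock arrays (0.51, adjusted p = 0.107).

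Of the 11, 5 passed between regimes under mock and 5 under ethanol, 2 higher in LL and 3 lower each time. Over all probe sets 24.1% passed under mock (12.8% higher and 11.4% lower) and 21.9% under ethanol (11.2% higher and 10.7% lower). AT2G25200 was higher in LL by 1.24 ± 0.23 log2 under ethanol (limma adjusted p = 0.000513) and by 1.48 ± 0.23 under mock (adjusted p = 8.56e-05), and the ranges of LL and LD arrays were apart in both treatments. The copper chaperone gene AT1G53030 was lower in LL by 0.88 ± 0.18 under ethanol (limma adjusted p = 0.00134) and by 0.76 ± 0.18 under mock (adjusted p = 0.00402). Its ALC::TOC1 arrays had 5.85, 6.03 and 6.42 log2 in LL ethanol arrays and 6.68, 6.999 and 7.25 log2 in LD ethanol arrays. The order of regimes for SWEET4, AT2G25200 and AT1G53030 under mock was that of the wild-type mock means, where LL minus LD was -0.50, 1.39 and -0.91.

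The ALC::TOC1 levels of the members were also set beside the wild type. These differences share the wild-type arrays that chose the members, so their direction under ethanol follows in part from the rule. Shares over all probe sets were not counted, and the counts are a description. Under ethanol the ALC::TOC1 mean was below wild type in LL in 29 of 29, with a median difference of -0.88 log2, and above it in LD in 28 of 29, with a median of 0.66. Under mock it was below wild type in LL in 20 of 29 (median -0.11) and above it in LD in 17 of 29 (median 0.07). For the 11 the ethanol differences ran the other way, below wild type in LL in 4 of 11 (median 0.65) and above it in LD in 2 of 11 (median -0.58), with mock medians of -0.32 in LL and -0.01 in LD. The root marker mean in ALC::TOC1 was 4.73 log2 in LL ethanol arrays and 4.59 in LL mock arrays, and 4.01 in LD ethanol arrays and 3.89 in LD mock arrays.

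Members of a direction also varied together between replicate arrays of 1 group. In the 12 ALC::TOC1 arrays the mean pairwise correlation of deviations from the group means was 0.45 among the 29 and 0.38 among the 11, against 0.0066 among all probe sets. These probe sets share the arrays, their RNA and their normalisation, and the correlation is a description. Replicate 1 of the ALC::TOC1 LL ethanol arrays was the highest of its group for 23 of the 29 (32.9% of all probe sets) and the lowest for 8 of the 11 (40.6% of all). In the ALC::TOC1 LD ethanol arrays, replicate 1 was the highest for 20 of the 29 (36.6% of all probe sets) and the lowest for 8 of the 11 (32.5% of all). Replicate 3 of that group was the lowest for 21 of the 29 (37.5% of all) and the highest for 8 of the 11 (37.0% of all). Among the mock arrays used by the rule, replicate 3 of the wild-type LL group was the lowest for 23 of the 29 (34.4% of all probe sets), and replicate 2 of the wild-type LD group was the highest for 22 of the 29 (33.1% of all).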

How the data were processed

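The deposited values are log2 levels, 1 for each probe set and array, and the submitters' processing notes name RMA and affy without a version. RMA brings the distributions of values across arrays close together, so a change shared by most probe sets is largely removed. The array medians of the deposited levels still ran from 5.137 to 5.414 log2. All 24 columns were mapped to samples by title. Of 22810 probe sets, 64 controls were left out. Gene names came from the platform annotation and loci and neighbours from RefSeq (TAIR10.1). The 40 members, the gene lists and the comparisons were chosen with earlier results of these data known.

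All 24 arrays were fitted with limma 3.58.1 in R 4.3.3, with 1 mean per group, no covariate, eBayes defaults and 16 residual and 4.865 prior degrees of freedom. A call is a two-sided Benjamini-Hochberg adjusted p under 0.05 over 22746 probe sets, and intervals are 95%. The fit was tested on simulated data. The 3 arrays a group limit the precision. Named by rule were up to 10 members with 1 gene name in each direction (10 of 14 in the first, all 6 in the second), by the smaller of their 2 absolute wild-type effects, called ones and those at the threshold; AT2G39795, AT2G37600 and AT1G28395 were added after their values were seen. Alternatives tried were leaving out dim probe sets (mean under 4 log2), a repeated quantile normalisation, median centring, eBayes with trend and robust options, ALC::TOC1 arrays alone, array weights, the GAPDH 3'/5' covariate, the replicate number as a block, and each replicate number or array left out.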

Additional observations from a re-analysis of the deposited data

Results flagged for a closer look

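The ethanol effect of the unnamed probe set 254232_at in ALC::TOC1 differed between the light regimes by a test of the difference itself. The LL effect minus the LD effect was 1.47 log2 (limma interaction, adjusted p = 0.037), with ethanol effects of 0.15 in LL and -1.32 in LD. All 3 LD ethanol arrays lay below all 3 LD mock arrays, and the LL arrays overlapped. With the replicate number as a block the adjusted p was 0.0521. The limma call was also lost without replicate number 1, 2 or 3 (adjusted p = 0.247, 0.244 and 0.143) and without most of the single ALC::TOC1 arrays.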

How the results depend on the processing

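Counts of members meeting the rule moved with the scaling. Median centring, which shifted the median wild-type LD effect by 0.117 log2 and the LL effect by 0.0333, left 21 probe sets in the first direction (16 of the 29) and 24 in the second (9 of the 11). Repeated quantile normalisation left 26 (23 of the 29) and 15 (10 of the 11), and the GAPDH covariate 49 and 28. Leaving out each array or replicate number gave 11 to 70 and 11 to 30, the highest being 70 without replicate 1 and 30 without replicate 2. In ALC::TOC1 LL, calls among the 29 (1 as reported) were 2 with the dim filter and 3 with ALC::TOC1 arrays alone, array weights or the GAPDH covariate, and among the 11 (0 as reported) 1 with quantile normalisation, median centring, ALC::TOC1 arrays alone or array weights. In LD, calls among the 29 (2 as reported) were 4 with ALC::TOC1 arrays alone and 6 with array weights. With samples left out, calls in LL ranged from 0 to 2 of the 29 and 0 to 1 of the 11, in LD from 1 to 4 and 1 to 3, and in the interaction from 0 to 1 and 0 to 0. Light differences ranged from 6 to 12 and 3 to 6 under mock, and from 4 to 12 and 3 to 5 under ethanol. The cause of these movements was not tested. Of the values for the members printed here by name or ID, 4119 kept direction and side of the threshold, 38 gained a call, 43 lost one and none was reversed. The members not printed singly are not in this tally. Signal over background was not measured here, and the lowest group means, 4.25 log2 among the 29 and 4.08 among the 11, lie below the array medians. The number of arrays limits the precision.

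With the replicate number as a block, the interaction call of 254232_at was lost (adjusted p = 0.0521), leaving 0 of the 29, and membership stayed at 29 and 11, as the design is balanced. Deviations of same-numbered ethanol and mock arrays from their group means correlated at -0.05, 0.20 and -0.14 in ALC::TOC1 LL and at 0.06, -0.07 and -0.21 in LD. In wild type they correlated at 0.34, 0.0997 and 0.49 in LL and at 0.03, -0.40 and -0.23 in LD. Replicate 3 was the lowest array for 22 of the 29 in wild-type LL ethanol (31.2% of all probe sets) and for 23 in wild-type LL mock (34.4% of all). Replicate 2 was the highest for 19 (29.7% of all) and 21 (29.1% of all). These arrays chose the 29, so their counts are a description. By the correlations, which are over all probe sets, same-numbered arrays deviated together to some degree in wild-type LL but not in every pair of groups. The labels tie no number to a shared batch, so the numbers were not taken to pair the samples.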
